A study of Mus musculus with 6 samples.

Results

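The growth hormone, IGF and leptin receptor axis was followed in RNA of primary mouse hepatocytes through 10 genes picked by name, Ghr, Stat5a, Stat5b, Socs2, Cish, Igf1, Igfals, Igfbp1, Igfbp2 and Lepr, out of 57180 genes in the deposited table. Each of the 10 was listed once, and each had enough counts to be tested. They were chosen with the difference between the groups in view, so that difference is described here for them and no p-value is given. Hepatocytes came from male floxed mice (STINGLoxp, labelled LOXP, n = 3 libraries) and from male mice with a liver-specific deletion of STING (STINGLKO, labelled KO, n = 3 libraries), made by crossing floxed STING mice to Albumin-Cre mice, whose Cre is driven by a hepatocyte promoter. Cells of both groups were kept in medium with dexamethasone, a glucocorticoid, and fetal bovine serum, and both were exposed for 24 h to the saturated fatty acid palmitate at 0.1 mM. By the methods of the study the mice were young adults, the labels name no growth hormone in the medium, and nothing states whether the 3 libraries of a group came from separate animals, so the spread between libraries may be technical.

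Growth hormone from the pituitary binds its receptor on the hepatocyte, and the kinase JAK2 on that receptor phosphorylates STAT5A and STAT5B, which enter the nucleus and switch on genes such as Igf1, Igfals, Socs2 and Cish. The liver is the main source of circulating IGF1, which travels bound to IGF-binding proteins and the acid-labile subunit, while SOCS2 and CISH feed back on the receptor. IGFBP1 is known as a binding protein that is held down by insulin and raised by fasting, glucocorticoids and stress, and the leptin receptor belongs to the same cytokine receptor class as the growth hormone receptor.

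Counted reads per library ran from 14726983 to 18536985, and 14151 genes were tested. Sting1, the targeted gene, had 19, 16 and 23 counts in STINGLoxp and 24, 23 and 15 in STINGLKO replicates 1, 2 and 3. Its log2 fold change was -0.08 (SE 0.298, adjusted p = 0.883 by the quasi-likelihood test of edgeR). The counts of the groups overlapped, and a lower level was not detected in them. The study reported a loss of Sting1 mRNA in knockout hepatocytes by RT-PCR, which these counts do not show. The RT-PCR was not analysed here, the reason for the disagreement was not tested, and the groups are used as labelled. Directions below are those of the libraries labelled STINGLKO relative to STINGLoxp.

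Across the axis, the receptor gene Ghr, the feedback gene Socs2, the hormone gene Igf1 and the binding protein gene Igfbp1 were lower in every library labelled STINGLKO than in every STINGLoxp library, and Igfbp2 and Lepr were higher in the same sense. Stat5a, Stat5b, Cish and Igfals overlapped between the groups. The normalized CPM (counts scaled to library size after TMM scaling) of 6 of the 10 genes thus did not overlap, 4 lower and 2 higher, beside 40.7% of all tested genes, 20.3% lower and 20.4% higher. With an adjusted p under 0.05 in edgeR's quasi-likelihood test as the call, 4 members were lower, where 11.6% of all tested genes were, and 2 were higher, where 11.5% were. By the criteria of the study, which also require at least 1 group above 1 FPKM on average and an absolute log2 fold change over 1, Igfbp1 counted as lower (1.49% of all tested genes) and Lepr as higher (0.558%), with 2.05% counted in either direction. Since the members were picked with these values known, nothing is read from these counts. The median log2 fold change of the 10 members was -0.24, and that of all tested genes was -0.0021.

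**Figure D1:**
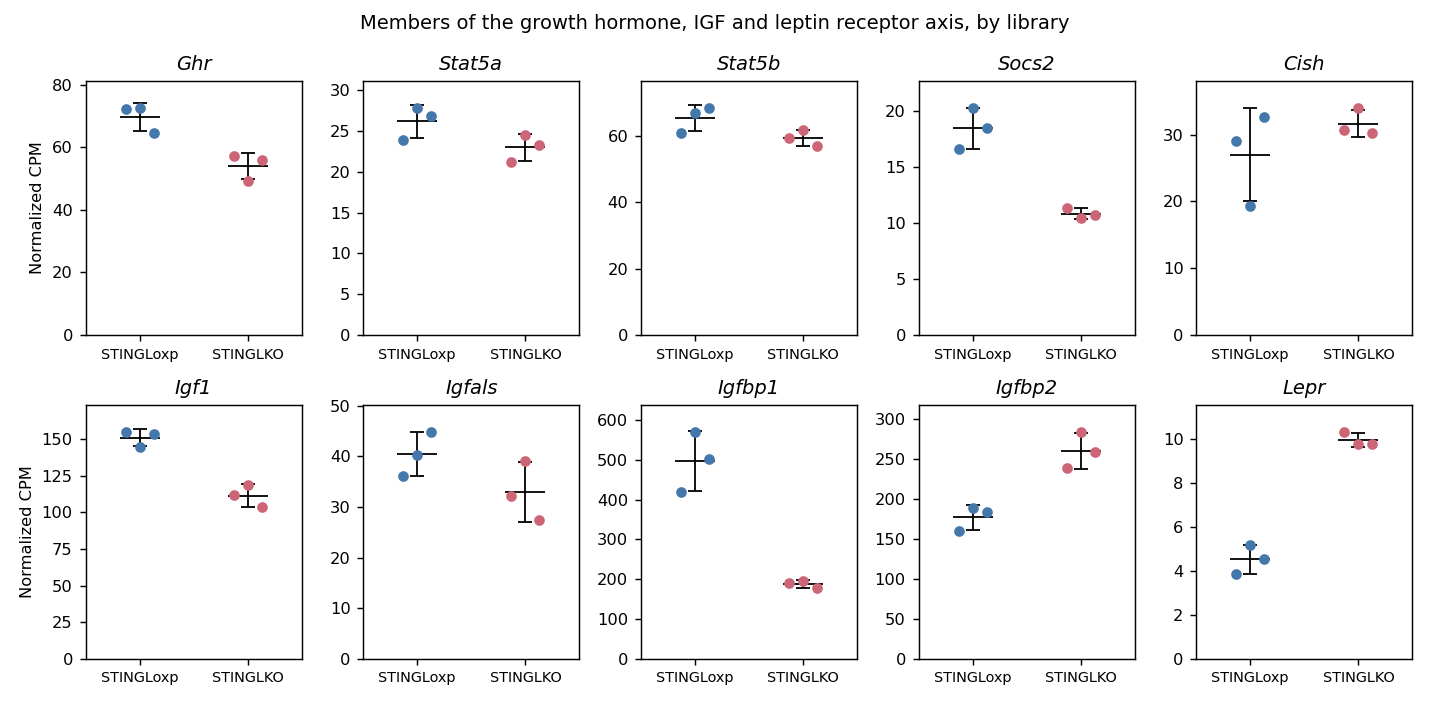
Normalized CPM (y axis, from 0) of each member in the 6 libraries. Each point is a library, the horizontal bar is the mean of 3 libraries and the whiskers are 1 SD. Igfbp1 lay from 177 to 196 in STINGLKO and from 418 to 570 in STINGLoxp, while Lepr lay from 9.77 to 10.3 and from 3.85 to 5.18.

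Ghr (ENSMUSG00000055737, chromosome 15, 3347242 to 3612974 in GRCm39), the growth hormone receptor gene, had 72.2, 72.5 and 64.7 normalized CPM in STINGLoxp replicates 1, 2 and 3 and 57.1, 49.3 and 55.9 in STINGLKO replicates 1, 2 and 3. The lowest STINGLoxp library stood above the highest library labelled STINGLKO, by a narrow gap. The mean was 69.8 ± 4.43 CPM in STINGLoxp and 54.1 ± 4.22 CPM in STINGLKO (SD, n = 3 libraries each), 1.29-fold lower, with a log2 fold change of -0.37 (SE 0.0830). Its level per gene length was 5.70 ± 0.348 FPKM in STINGLoxp and 4.53 ± 0.392 FPKM in STINGLKO. A read count of a whole gene does not separate the full receptor from the shorter mRNA that encodes growth hormone-binding protein.

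Stat5a and Stat5b encode the transcription factors that carry the signal of the receptor. They lie side by side on chromosome 11 (Stat5b, ENSMUSG00000020919, 100671557 to 100741550, and Stat5a, ENSMUSG00000004043, 100750177 to 100775995), with 8626 bases between them. Stat5b had 61.1, 67.0 and 68.4 CPM in STINGLoxp and 59.3, 62.0 and 57.2 in STINGLKO replicates 1, 2 and 3. Stat5a had 23.9, 27.8 and 26.8 CPM in STINGLoxp and 21.2, 24.4 and 23.3 in STINGLKO. For both genes STINGLKO replicate 2 lay above STINGLoxp replicate 1, so the groups overlapped. The log2 fold changes were -0.14 (SE 0.0719) for Stat5b and -0.19 (SE 0.0935) for Stat5a, the smallest among the 10 members. Per gene length Stat5b was the more abundant, with 4.11 to 4.35 times the FPKM of Stat5a in STINGLoxp and 4.18 to 4.76 times in STINGLKO. The coding sequences of these paralogs are alike, so reads can be shared between them, and the 3' end of Stat5a overlaps that of Stat3, on the other strand, by 72 bases in the table. Stat3, with 2760 to 3310 counts in each library, had a log2 fold change of -0.18 (adjusted p = 0.0726 by the quasi-likelihood test of edgeR).

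Socs2 and Cish are both feedback inhibitors that STAT5 induces. Socs2 was lower in the STINGLKO libraries, and Cish overlapped between the groups. Socs2 (ENSMUSG00000020027, chromosome 10, 95221224 to 95253042) had 16.6, 20.2 and 18.4 CPM in STINGLoxp replicates 1, 2 and 3 and 11.4, 10.4 and 10.7 in STINGLKO. The STINGLKO values were tight and all lay under the STINGLoxp values. The mean went from 18.4 ± 1.81 to 10.8 ± 0.473 CPM, 1.70-fold lower, with a log2 fold change of -0.77 (SE 0.108). Cish (ENSMUSG00000032578, chromosome 9, 107173225 to 107179983) had 29.1, 19.3 and 32.7 CPM in STINGLoxp and 30.7, 33.9 and 30.3 in STINGLKO. STINGLoxp replicate 2 was the low library and the other 5 lay together. The log2 fold change of Cish was 0.23 (SE 0.170), and it was 0.04 without STINGLoxp replicate 2.

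Promoter sequence was available from RefSeq (GRCm38.p6, another build than the GRCm39 positions of the table) for 9 of the 10 members, in 16 windows of 250 bases before and 50 bases after an annotated start; Socs2 was not among them. The STAT recognition motif TTCNNNGAA, searched on both strands, matched in 3 of the 16 windows, 2 of Igfals and 1 of Cish, and in 8.30% of 32851 windows of all genes. The Cish window held 2 matches in tandem right at the annotated start, from base 1 to 9 and from base 12 to 20 counted from the start. The 30 bases around them (chr9:107296654-107296683, plus strand) are shown since they are the densest match among the members, with the matches in capitals.
Cish: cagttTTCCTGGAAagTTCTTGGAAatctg
The motifs were chosen after these windows had been seen, and a match is a run of letters and not a measured binding site.

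Igf1 (ENSMUSG00000020053, chromosome 10, 87694127 to 87772904) encodes insulin-like growth factor 1, the hormone through which much of growth hormone's effect on the body passes. It had 155, 145 and 154 CPM in STINGLoxp replicates 1, 2 and 3 and 112, 119 and 104 in STINGLKO. The groups were clearly apart, with a spread inside each group far smaller than the distance between them. The mean went from 151 ± 5.62 to 112 ± 7.62 CPM, 1.36-fold lower, with a log2 fold change of -0.44 (SE 0.0678). The antisense transcript Igf1os, which overlaps Igf1 by 5117 bases, had 4 to 10 counts per library, against 1758 to 2456 for Igf1, and whether the counting used strand is not stated. Igfals (ENSMUSG00000046070, chromosome 17, 25084971 to 25100984), the acid-labile subunit that holds IGF1 in its large circulating complex, had 36.2, 40.4 and 44.8 CPM in STINGLoxp and 32.2, 39.1 and 27.4 in STINGLKO. STINGLKO replicate 2 lay among the STINGLoxp libraries. The log2 fold change was -0.30 (SE 0.135), and from -0.44 without STINGLKO replicate 2 to -0.18 without STINGLKO replicate 3.

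The 2 binding protein genes went opposite ways. Igfbp1 (ENSMUSG00000020429, chromosome 11, 7147782 to 7152546) had 418, 570 and 501 CPM in STINGLoxp replicates 1, 2 and 3 and 190, 196 and 177 in STINGLKO. The highest STINGLKO library lay far under the lowest STINGLoxp library. The mean went from 496 ± 75.9 to 188 ± 9.52 CPM, 2.64-fold lower, with a log2 fold change of -1.40 (SE 0.105), rank 209 among the 14151 tested genes counted from the most lowered. Igfbp2 (ENSMUSG00000039323, chromosome 1, 72863662 to 72891633), a binding protein found with IGF2 and IGF1 in serum, had 159, 188 and 183 CPM in STINGLoxp and 238, 284 and 259 in STINGLKO. Each library labelled STINGLKO was above each STINGLoxp library. The mean went from 177 ± 15.5 to 260.2 ± 22.8 CPM, 1.47-fold higher, with a log2 fold change of 0.56 (SE 0.0854). Set against each other per gene length, the FPKM of Igfbp1 was 4.64, 5.34 and 4.83 times that of Igfbp2 in STINGLoxp replicates 1, 2 and 3, and 1.41, 1.22 and 1.21 times in STINGLKO.

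Lepr (ENSMUSG00000057722, chromosome 4, 101574601 to 101672549), the leptin receptor gene, had the lowest level of the 10 in STINGLoxp. Its counts were 61, 74 and 69 in STINGLoxp replicates 1, 2 and 3 and 162, 181 and 168 in STINGLKO, which are 3.85, 5.18 and 4.54 CPM and 10.3, 9.77 and 9.80 CPM. The groups lay far apart for so few reads. As for Ghr, a read count of a whole gene does not separate the forms of its mRNA. The mean went from 4.52 ± 0.663 to 9.96 ± 0.314 CPM, 2.20-fold higher, with a log2 fold change of 1.14 (SE 0.146), rank 143 counted from the most raised gene. On log2(FPKM + 1), where the added 1 is close to such levels and shrinks their differences, the difference was 0.55 for Lepr and -0.37 for Socs2. The gene Lep, which encodes leptin, was at 0 counts throughout, compatible with at most 3 per library. Leprot, which encodes a protein known to limit leptin receptor at the cell surface and is named after its values were seen, had a log2 fold change of -0.02 (SE 0.0675, adjusted p = 0.844 by the quasi-likelihood test of edgeR).

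The promoter windows of the members with the largest changes, Igfbp1 and Lepr, shared the run CAAAACAA, the core of the insulin response element known from the Igfbp1 promoter, to which FOXO factors bind. It was searched on both strands and matched in 2 of the 16 member windows and in 2.51% of all 32851 windows. Since the element is known from Igfbp1 and was chosen after the windows had been seen, its match there was given beforehand. Nothing is read from the count of matching windows. In Igfbp1 it lay from base 108 to base 101 before the annotated start, and in 1 of the 2 windows of Lepr from base 114 to base 107 before it. The 250 bases before those starts (Igfbp1, chr11:7197537-7197786, and Lepr, chr4:101717656-101717905, both on the plus strand of GRCm38.p6) are printed for comparison of a gene that was lower with one that was higher, with the match in capitals.
Igfbp1: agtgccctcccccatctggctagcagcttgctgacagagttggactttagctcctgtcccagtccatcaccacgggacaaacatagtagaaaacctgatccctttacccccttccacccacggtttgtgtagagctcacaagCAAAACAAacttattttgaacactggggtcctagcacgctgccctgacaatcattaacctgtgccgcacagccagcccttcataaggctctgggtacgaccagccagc
Lepr: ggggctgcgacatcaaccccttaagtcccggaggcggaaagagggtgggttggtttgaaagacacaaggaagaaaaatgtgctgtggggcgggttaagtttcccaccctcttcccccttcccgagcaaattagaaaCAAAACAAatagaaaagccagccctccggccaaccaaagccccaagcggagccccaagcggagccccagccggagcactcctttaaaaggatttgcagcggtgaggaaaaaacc
The same letters stood in a promoter of each direction, and binding was not measured.

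Per gene length the levels of the axis spanned a wide range. In STINGLoxp the order was Igfbp1 (320.4 ± 44.9 FPKM), Igfbp2 (64.7 ± 5.00), Igf1 (11.3 ± 0.575), Stat5b (11.01 ± 0.587), Ghr (5.70 ± 0.348), Igfals (4.71 ± 0.498), Stat5a (2.58 ± 0.169), Cish (2.46 ± 0.654), Socs2 (1.33 ± 0.112) and Lepr (0.579 ± 0.0772). Neighbours in this order whose libraries overlapped were Igf1 with Stat5b and Stat5a with Cish. In STINGLKO, Igfbp1 (124 ± 5.02 FPKM) and Igfbp2 (97.6 ± 7.95) still led, Stat5b (10.3 ± 0.302) stood above Igf1 (8.57 ± 0.493), Cish (2.95 ± 0.158) above Stat5a (2.33 ± 0.157), and Lepr (1.31 ± 0.0445) above Socs2 (0.800 ± 0.0387). Ghr (4.53 ± 0.392) and Igfals (3.92 ± 0.663) overlapped there.

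**Figure D2:**
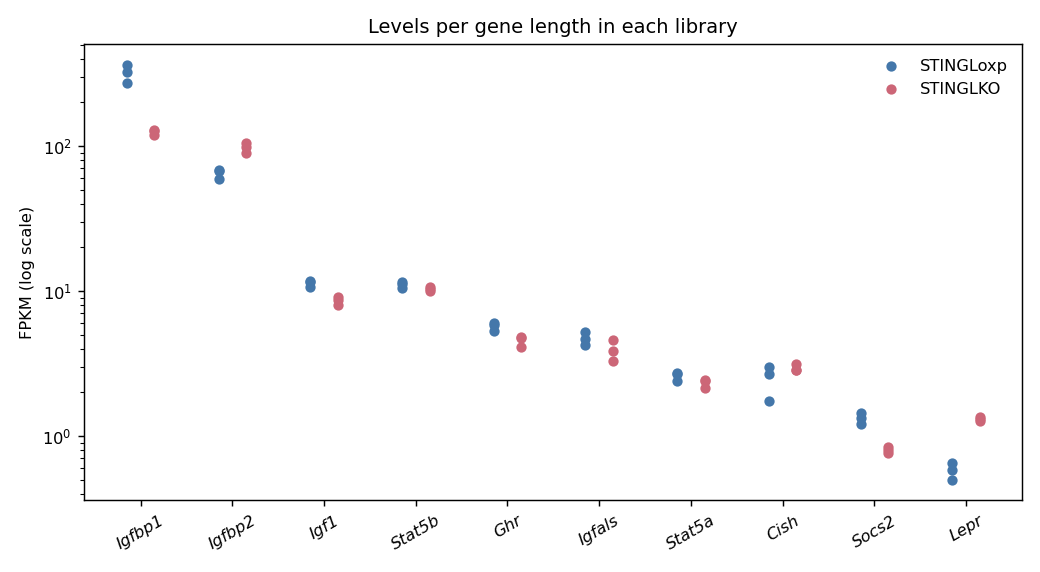
FPKM of each member (log scale on the y axis) in STINGLoxp (blue) and STINGLKO (red), a point per library, ordered by the STINGLoxp mean. Igfbp1 and Igfbp2 lay close together in STINGLKO, at 124 and 97.6 FPKM, and Lepr and Socs2 changed places.

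The spread between libraries of a group, as the SD of log2 CPM, ran from 0.0739 for Stat5b to 0.289 for Cish, with a median of 0.140 over all tested genes. Over 13 alternative settings each member kept the sign of its log2 fold change, and the widest ranges were those of Lepr (0.55 to 1.25), Socs2 (-0.84 to -0.37) and Cish (0.04 to 0.38). Igfbp1 ran from -1.51 without STINGLoxp replicate 1 to -1.29 without STINGLoxp replicate 2.

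**Figure D3:**
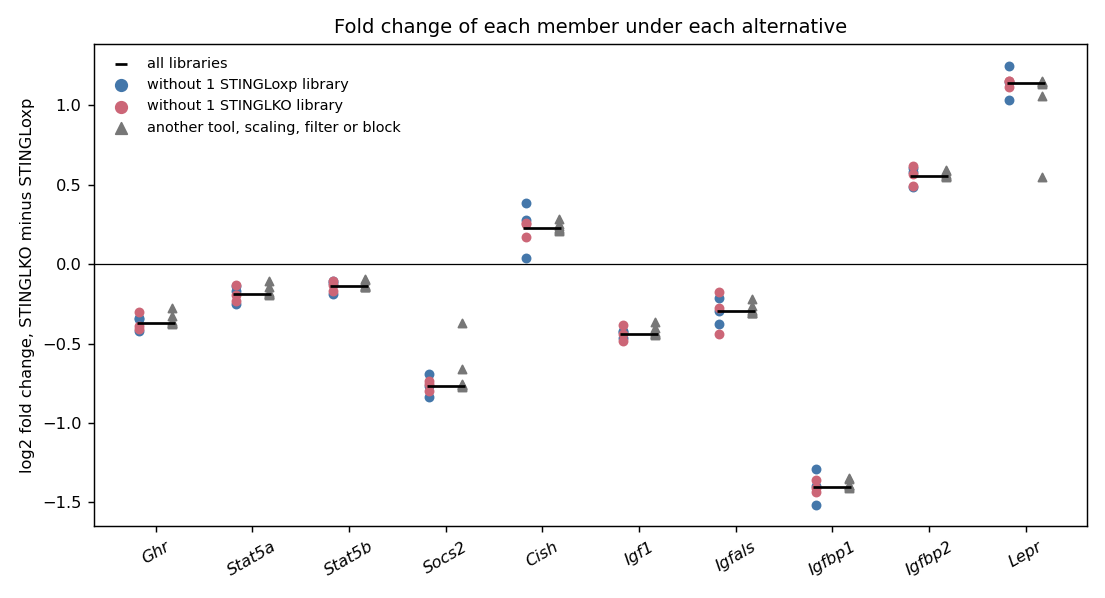
Log2 fold change of each member (y axis, STINGLKO minus STINGLoxp) from all libraries (black bar), with 1 library left out (circles, coloured by the group it came from) and under another tool, scaling, filter or a block (triangles). No point crosses 0. The lone triangles of Socs2 at -0.37 and Lepr at 0.55 are log2(FPKM + 1).

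Genes whose log2(CPM + 0.5) followed a member most closely over the 6 libraries were found by Pearson's r among 11101 candidates, which are other tested genes above 1 FPKM on average in at least 1 group. For Ghr these were Ero1b (r = 0.997), Ctu1 (0.996) and Gm29462 (0.994). For Igf1 they were Tpmt (0.998), Fst (0.994) and Cers2 (0.993), and for Lepr they were Rbbp7 (0.998), Blcap and Hspbap1 (0.998 each). The 6 points fall into the 2 groups and share libraries and scaling, so a gene with a clear difference between the groups can score high. The value of r was above 0.95 for 125, 319 and 494 genes with Ghr, Igf1 and Lepr.

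Other genes of receptor signalling, listed from general knowledge but with earlier results of these data known, moved in both directions. The lists that follow were made in the same way, and the adjusted p-values of their genes carry that limit. Of 28 genes, 27 were tested, 4 fell, 3 rose and 20 did not pass (adjusted p under 0.05 in edgeR's quasi-likelihood test). The median log2 fold change of the tested genes was 0.01. By the same call 11.6% of all tested genes were lower and 11.5% higher, 23.1% in either direction. These shares also stand beside the counts of the lists that follow, and no list count was tested against them. Prlr, the prolactin receptor, a relative of Ghr, fell by 1.18 on the log2 scale, from 9.24 ± 0.807 to 4.07 ± 0.829 CPM (adjusted p = 0.00220). Jak2, the kinase on the growth hormone receptor, fell by 0.34, from 40.1 ± 2.28 to 31.6 ± 0.571 CPM (adjusted p = 0.0109), and Il6st, the gp130 chain shared by interleukin-6 type receptors, fell by 0.44 (adjusted p = 0.0196). Among the genes that rose, Socs5, of the same family as Socs2, rose by 0.52 (adjusted p = 0.00123), Ptpn1, a phosphatase that acts on JAK2, by 0.24 (adjusted p = 0.0226), and Cbl, a ubiquitin ligase, by 0.24 (adjusted p = 0.0349). The most abundant, Jak1 and Leprotl1, had log2 fold changes of -0.12 (adjusted p = 0.0884) and 0.08 (adjusted p = 0.562). Without STINGLoxp replicate 3 the list held 3 lower and 1 higher calls, and Cbl passed in 5 of 13 alternatives (adjusted p up to 0.105, without that library). Ptpn1 did not pass without STINGLoxp replicate 3 or STINGLKO replicate 2 or 3 (up to 0.0791), and Il6st did not without STINGLoxp replicate 3 (0.0641).

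Of 19 further IGF system genes, 11 were tested, 1 fell and 2 rose, with a median log2 fold change of 0.20. Igf2r, the receptor that clears IGF2 and sorts lysosomal enzymes, fell by 0.41, from 278 ± 13.1 to 209.9 ± 10.0 CPM (adjusted p = 0.00217 by the quasi-likelihood test of edgeR). Igf2bp2, an RNA-binding protein of IGF2 and other mRNAs, rose by 0.48, from 26.2 ± 0.598 to 36.4 ± 4.20 CPM (adjusted p = 0.00893). Its paralog Igf2bp1 had 2, 6 and 3 counts in STINGLoxp replicates 1, 2 and 3 and 50, 28 and 41 in STINGLKO, a log2 fold change of 3.23 (SE 0.475, adjusted p = 0.00219) that rests on a handful of STINGLoxp reads. Igf2bp1 passed the count filter only through the STINGLKO libraries. Igfbp4, the most abundant gene of the list, had 205, 488 and 477 CPM in STINGLoxp and 173, 299 and 285 in STINGLKO. Replicate 1 was low in both groups, and the log2 fold change of -0.63 (SE 0.319) did not pass (adjusted p = 0.197), but it did without STINGLoxp replicate 1 (-0.94, adjusted p = 0.0197). Igf2, Pappa and Pappa2 were at 0 counts throughout, compatible with at most 3 per library. The genomic neighbours of the 2 binding proteins, named after their values were seen, were not called or not tested, with Igfbp3, 3539 bases from Igfbp1, at a log2 fold change of 0.20 (adjusted p = 0.331) and Igfbp5, 5457 bases from Igfbp2, at 0 to 6 counts per library.

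The liver genes that differ between the sexes because of the pattern of growth hormone release were followed in 2 more lists, from which the major urinary protein genes were left out as near-identical copies. Of 16 genes known as higher in males, 13 were tested, 3 fell and 2 rose, with a median log2 fold change of -0.04. Selenbp2 fell by 3.11, from 77.5 ± 8.49 to 8.96 ± 0.363 CPM (adjusted p = 6.26e-07 by the quasi-likelihood test of edgeR), Serpina1e, an α1-antitrypsin gene, fell by 0.94, from 2874 ± 64.6 to 1503 ± 16.3 CPM (adjusted p = 5.59e-06), and Bcl6, a repressor that competes with STAT5, fell by 0.73 (adjusted p = 0.0177). Cyp4a12a and Cyp4a12b, fatty acid hydroxylases, rose by 0.78 (adjusted p = 8.14e-04) and 0.53 (adjusted p = 0.0176), and the abundant Gstp1, a glutathione transferase, had a log2 fold change of 0.07 (adjusted p = 0.592). The male-biased genes thus went both ways. Selenbp2, Serpina1e and the Cyp4a12 pair also have near-identical copies with which reads can be shared, but they were kept in the list. Their own values, and the directions that rest on them, are thus uncertain. Without STINGLKO replicate 3 the list held 2 lower and 1 higher calls, and Bcl6 did not pass with any 1 of STINGLKO replicates 1, 2 and 3 left out (adjusted p = 0.0527, 0.0622 and 0.0553 in edgeR). Cyp4a12b did not pass without STINGLoxp replicate 3 (0.0531) or STINGLKO replicate 3 (0.0586).

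Of 19 genes known as higher in females, 14 had too few counts to be tested in these cells of male mice, and 5 of those had 0 counts throughout. Of the 5 tested, 2 fell and 0 rose, with a median log2 fold change of -0.48. Cyp39a1, an oxysterol hydroxylase of bile acid synthesis, fell by 1.40, from 47.9 ± 1.55 to 18.2 ± 0.779 CPM (adjusted p = 1.71e-05 by the quasi-likelihood test of edgeR). Cyp17a1, an enzyme of steroid synthesis, had 38, 31 and 27 counts in STINGLoxp and 6, 3 and 10 in STINGLKO replicates 1, 2 and 3. It fell by 2.49 (adjusted p = 0.00303 in the same test), but it passed the count filter only through the STINGLoxp libraries. Of the untested genes, both named after their values were seen, Cyp3a44 had fewer counts in STINGLKO and Cyp2b9 had more. Which genes were tested thus depends on the filter, while the direction of the calls did not change with it. With a filter of at least 1 count, 14 genes were tested, 3 were called lower and 0 higher. With at least 10 counts in every library, 3 were tested, 1 was called lower and 0 higher. Lifr, the receptor of leukaemia inhibitory factor, had a log2 fold change of -0.23 (adjusted p = 0.164).

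**Figure D4:**
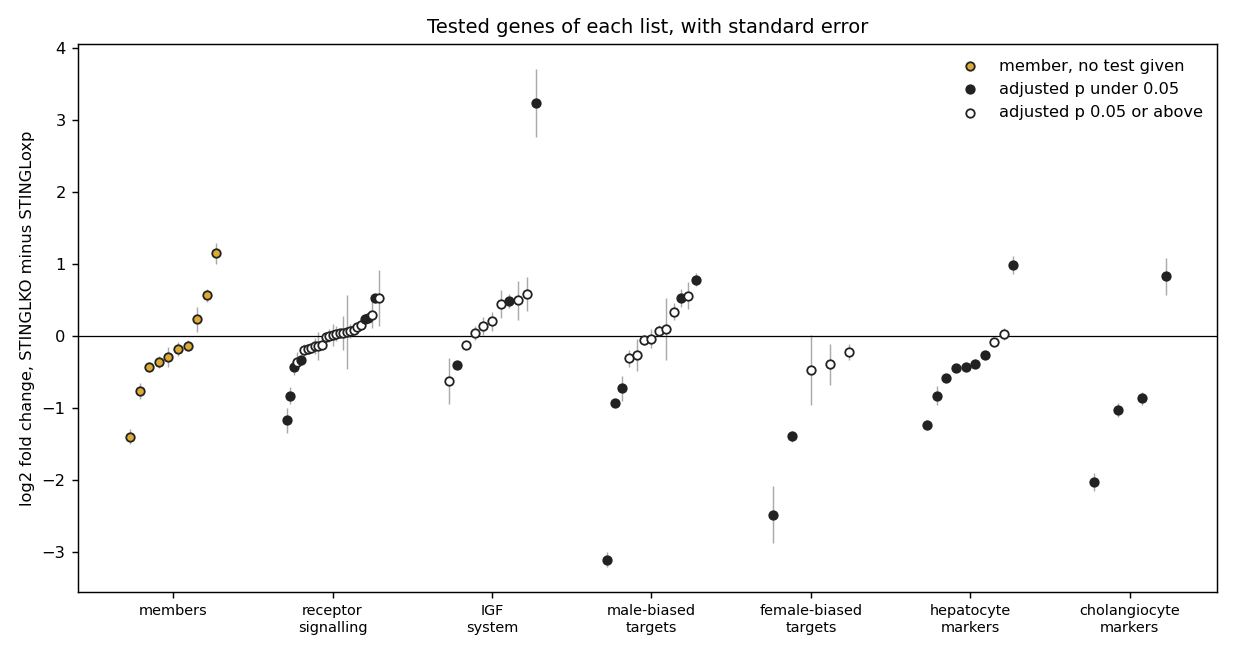
Log2 fold change (y axis, STINGLKO minus STINGLoxp) of each tested gene of 7 lists, with whiskers of 1 standard error. Filled black points passed an adjusted p of 0.05 and open points did not, and members are shown in yellow with no test. The receptor signalling genes lie on both sides of 0, with a median of 0.01, while 7 of 10 hepatocyte markers and 3 of 4 tested cholangiocyte markers fell.

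Markers of the labelled cell type were abundant and differed between the groups. Of 10 hepatocyte markers, 7 fell and 1 rose (edgeR's quasi-likelihood test, adjusted p under 0.05), with a median log2 fold change of -0.41, and their summed level lay between 10040 and 10390 FPKM in STINGLoxp and between 8710 and 8833 FPKM in STINGLKO. The marker that rose was Fabp1, by 0.98 (adjusted p = 9.68e-04 in the same test), while Cps1 fell by 1.24, both named after their values were seen. Alb, at a mean of 7106 FPKM, fell by 0.27 (adjusted p = 0.00319), and Apoa1, at 1115 FPKM, had a log2 fold change of -0.09 (adjusted p = 0.232). Alb held most of the summed level, at means of 7670 FPKM in STINGLoxp and 6541 FPKM in STINGLKO. In bulk RNA, fewer cells of a type and less RNA of a gene per cell cannot be told apart, and the part of this shift, and of those in the other marker lists, in the values of the 10 members was not tested. Of 6 cholangiocyte markers, 4 were tested, 3 fell, among them Cldn4 (by 1.03) and Sox9 (by 0.87), and 1 rose. The marker that rose was Krt19, named after its values were seen, by 0.82, from 0.888 ± 0.308 to 1.61 ± 0.153 FPKM. Its adjusted p was 0.0479 in edgeR's quasi-likelihood test. The sums of the list were 119 to 140.2 FPKM against 61.8 to 72.7 FPKM. Cldn4 held most of them, at means of 111 FPKM in STINGLoxp and 55.8 FPKM in STINGLKO. Macrophage markers were present at a low level. Of 10 of them, 9 were tested, 8 were not called and 1 fell, Cd68, by 0.87 (adjusted p = 4.20e-04 in edgeR's quasi-likelihood test). Lyz2 had a log2 fold change of 0.18. Cd5l, named after its values were seen, was higher in every STINGLKO library but not called (0.94, adjusted p = 0.0853 in the same test). The sums were 55.2 to 67.9 FPKM in STINGLoxp and 43.3 to 51.0 in STINGLKO. Cd68 was their largest part, at means of 37.6 FPKM in STINGLoxp and 21.1 FPKM in STINGLKO. Sinusoidal endothelial markers, led by Cdh5 and Lyve1, summed to 29.95 to 33.5 FPKM against 28.6 to 31.2, with 1 of 9 tested genes lower, and stellate cell markers, led by Dcn and Acta2, to 6.20 to 6.48 against 6.78 to 7.73, with 0 of 8 called in edgeR's quasi-likelihood test. Of 8 lymphocyte markers, 7 had 0 counts in every library, Cd3e among them, and Cd79b was the exception, and the 5 neutrophil markers, of which Csf3r and S100a9 were the most abundant, summed to at most 0.721 FPKM in any library.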

How the data were processed

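RNA of 6 hepatocyte samples was sequenced by the authors as paired-end reads, which were mapped with HISAT2. The submitters' processing notes also name fastp, StringTie, edgeR and GRCm39. The annotation release, counting tool and strand setting are not given in the sources used here. For each gene the authors deposited a raw read count per library, beside FPKM, in which that count is scaled by gene length and library size. No value column was left out.

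The deposited counts went into edgeR 4.0.16 under R 4.3.3 (filterByExpr with a minimum count of 10, TMM factors from 0.973 to 1.02, two-sided quasi-likelihood test, Benjamini-Hochberg adjustment over 14151 genes, adjusted p under 0.05). Pairs of replicates gave a chi-square of 7.58 to 16.1 per degree of freedom, so no pair agreed within counting noise. Alternatives were DESeq2 1.42.0, limma 3.58.1 on log2(FPKM + 1) and log2(FPKM + 0.1), upper-quartile factors, a block for the replicate number, filters of at least 1 count in all or 10 in each library, and the removal of each library in turn. DESeq2 gave no adjusted p for 10394 of its 24982 genes. The fit was tested on simulated counts with known changes.

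The members and lists were chosen with earlier results of these data known. Named genes are the members, the up to 4 lower and 4 higher called genes of smallest adjusted p and the 2 most abundant of each list around them, the 2 most abundant of each of 7 marker lists, and the 3 genes most like Ghr, Igf1 and Lepr. Others are marked as named after their values were seen, or are listed at 0 counts. A gene that this rule names is not reported here. Promoter windows came from RefSeq (GRCm38.p6). Figures were drawn with matplotlib 3.10.9.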

Additional observations from a re-analysis of the deposited data

How the results depend on the processing

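The members were chosen with these values known, so their calls are a description and nothing is read from them. Adjusted p under 0.05 in edgeR's quasi-likelihood test called 6 members, and 5 without STINGLKO replicate 2, where Ghr was not called, and 5 to 6 over all libraries left out in turn. The same range was 4 to 7 for the 7 receptor signalling calls, lowest without STINGLoxp replicate 3, 3 to 4 for the 3 IGF system calls, 3 to 6 for the 5 male-biased calls, lowest without STINGLKO replicate 3, and 2 to 2 for the 2 female-biased calls. It was 1974 to 3025 for the 3274 calls among all tested genes, with 2146 without STINGLKO replicate 1 and 1974 without STINGLKO replicate 2. With at least 10 counts in every library 3 female-biased genes were tested and 1 was called, since Cyp17a1 was not among those tested. The criteria of the study, which also set a fold change and an FPKM limit, called 290 of all tested genes. Sting1 ran from -0.26 to 0.11 with a library left out, changing sign without STINGLoxp replicate 3 (0.06) and STINGLKO replicate 3 (0.11), and was not called under any of 13 alternatives. Cdh5, also not called, changed sign with upper-quartile factors (-0.0026) and without STINGLoxp replicate 1 (-0.0060), STINGLoxp replicate 3 (-0.02) or STINGLKO replicate 2 (-0.0715), and ran from -0.0715 to 0.0788 with a library left out. Replicate numbers are shared between the groups, and the deviations of same-numbered libraries from the group means correlated at 0.132, 0.0729 and 0.0256. STINGLoxp replicates 1 and 2 correlated best with the STINGLKO library of the same number, and STINGLoxp replicate 3 with STINGLKO replicate 2 (0.0406). These small values do not settle whether the numbers are pairs, and the main fit did not use them as such. Single genes did share a pattern by number. Socs6, named after its values were seen, had 49.65 CPM in STINGLoxp replicate 2 and 50.35 in STINGLKO replicate 2. In the other libraries it had from 15.8 to 18.68 CPM. Igfbp4 was low in replicate 1 of both groups. The reason for these shared patterns was not tested. With the replicate number as a block, 6 members were called, 7 receptor signalling, 4 IGF system, 6 male-biased and 2 female-biased genes, 3235 of all tested genes were called, and the log2 fold change of Sting1 was -0.08. Without the block Igfbp4 was not called, and with it the adjusted p was 0.0122. On log2(FPKM + 1) and log2(FPKM + 0.1) 1349 and 1344 genes were lower and 1818 and 1823 higher, against 1641 and 1633. On log2(FPKM + 1) the low-level Prlr, Igf2bp1 and Cyp17a1 were called at smaller differences of -0.25, 0.26 and -0.46. Counts near 0 limit what can be said of Sting1, Lep, Igf2 and the untested list genes.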

Other observations

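Too few counts to be tested were found for 1 receptor signalling, 8 IGF system, 3 male-biased and 14 female-biased genes. Among these, 5 had normalized CPM that did not overlap between the groups, where 40.7% of all tested genes did not overlap. At such counts a few reads decide whether the groups overlap, and nothing is read from these 5. They are named after their values were seen, and no test was made. Hsd3b5, a male-biased steroid dehydrogenase gene, had 3, 3 and 4 counts in STINGLoxp replicates 1, 2 and 3 and 1, 0 and 1 in STINGLKO. Cyp3a44, a female-biased cytochrome P450 gene, had 4, 7 and 7 counts against 0, 0 and 1. Cyp2b9, another female-biased cytochrome P450 gene, had 0 counts in each STINGLoxp library and 2, 2 and 5 in STINGLKO. Igf2bp3, the third of the IGF2 mRNA-binding proteins, had 15, 8 and 10 counts against 4, 7 and 6, and Cspg5, a male-biased gene, had 2, 2 and 3 against 7, 4 and 5.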
